A study of Mus musculus with 24 samples.

Results

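The organic ion transporters of mouse, 40 genes whose symbol begins with Slc22a or Slco and a number, were followed across 4 organs in H3K27Ac ChIP-seq. They were picked out by symbol from a table of 27179 genes. The set holds 25 Slc22 genes and 15 Slco genes. RefSeq lists Slc22a13b as a transcribed pseudogene and Slco6b1 as a long non-coding RNA, and the others as protein coding. H3K27Ac is histone H3 acetylated at a lysine of its tail, a mark of active promoters and enhancers, so the values describe acetylated chromatin on each gene and not its RNA or protein.

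Slc22 proteins carry organic cations, organic anions, carnitine and urate across the plasma membrane, and Slco proteins (the OATP family) carry bile acids, bilirubin, thyroid hormones, prostaglandins, steroid conjugates and many drugs. In the kidney, members on the blood side of the proximal tubule cell take up drugs and metabolites for secretion, while others on the urine side take urate back. In the liver, members on the blood side of the hepatocyte clear the same kinds of compound for metabolism and excretion into bile, so the division of the families between kidney and liver decides much of how drugs are removed.

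The groups used were kidney, liver, brain and heart of mice, each preserved in either of 2 ways. FFPE organs had been fixed in 10% formalin and embedded in paraffin, and their chromatin was extracted at 95 °C for 20 min. Frozen organs were flash frozen, and cores were crosslinked in 1% formaldehyde for 30 min. No genetic change, drug or disease is given for any group, and strain, sex, age and the number of animals are not given in the labels. The labels list 2 H3K27Ac libraries for each of the 8 groups, but the deposited table has 1 column per group, so 8 libraries were analysed and each organ was represented by 1 FFPE and 1 Frozen library. Pieces of whole organ were used, and a difference in the share of a cell type cannot be told apart from a difference in signal per cell.

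Values are log2 CPM, the reads assigned to a gene scaled to the size of the library and put on a log2 scale. The libraries held between 4404789 and 6164562 reads on genes, and the members had between 21 and 998 counts in a library, so all 40 could be tested. The whole libraries differed in spread: the median absolute deviation of the log2 values over all genes was 2.32 in the Heart Frozen and 2.37 in the Liver Frozen library, against 1.62 to 1.86 in the other 6. The organ labels were checked against marker genes. Of 20 proximal tubule markers 13 were higher and 0 were lower in kidney than in liver, with a median difference of 1.23, and all 20 hepatocyte markers were lower in kidney, with a median of -2.98 (limma, adjusted p under 0.05). All 10 neuron markers were higher in brain and all 10 cardiomyocyte markers were higher in heart than in the mean of the other 3 organs. Of the remaining kidney and liver lists, 6 of 10 distal nephron markers were higher and 0 lower in kidney, 0 of 7 podocyte markers were higher and 1 was lower, and 2 of 10 macrophage markers (Cx3cr1 and Clec4f, named after their values were seen) were lower and 0 higher. No marker of these lists was at 0 in any library. The summed counts of the proximal tubule markers were 7439 and 10217 in the kidney FFPE and Frozen libraries, against 4230 and 6328 in liver. Those of the hepatocyte markers were 2159 and 2071 in kidney, against 10629 and 18845 in liver. Their median log2 CPM outside liver, in FFPE and Frozen, was 4.09 and 3.73 in kidney, 3.76 and 3.87 in brain, and 3.71 and 3.41 in heart. Values of some members lay near these medians, such as Slc22a16 at 2.64 to 4.01. Inputs were not used, and whether such values stand above background was not tested. Of 16 housekeeping genes 0 were higher and 3 lower in kidney than in liver (median -0.31, and -0.11 with quantile normalization and -0.15 with the libraries set to the same median and spread). The part of such differences in the members' values was not tested.

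RefSeq promoter windows of 300 bases on build GRCm38.p6 (250 before the transcription start and 50 after it) were found for 35 of the 40 members, 40 windows in all. They are shown for members that differed between kidney and liver (limma, adjusted p under 0.05), the first 2 higher in kidney and the last 2 lower. Slco4a1, Slco1a6 and Slc22a2, which also have windows, had larger kidney excesses than Slc22a6. Capitals mark the letters of the NF-Y box (CCAAT), the GC box (GGGCGG) and the TATA box (TATAAA), 3 general promoter motifs, searched on both strands.

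Slc22a12, chr19:6543021-6543320, minus strand: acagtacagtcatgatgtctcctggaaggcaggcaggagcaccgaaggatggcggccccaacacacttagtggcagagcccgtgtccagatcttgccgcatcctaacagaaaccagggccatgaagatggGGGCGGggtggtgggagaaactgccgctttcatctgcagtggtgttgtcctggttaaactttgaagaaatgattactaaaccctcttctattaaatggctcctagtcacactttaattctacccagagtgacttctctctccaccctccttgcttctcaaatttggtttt

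Slc22a6, chr19:8617746-8618045, plus strand: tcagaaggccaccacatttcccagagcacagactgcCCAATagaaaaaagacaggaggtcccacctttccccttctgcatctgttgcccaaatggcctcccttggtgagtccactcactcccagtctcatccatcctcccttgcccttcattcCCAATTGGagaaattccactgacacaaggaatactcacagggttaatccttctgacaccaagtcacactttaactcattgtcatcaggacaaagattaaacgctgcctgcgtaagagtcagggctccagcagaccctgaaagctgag

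Slco1b2, chr6:141629268-141629567, plus strand: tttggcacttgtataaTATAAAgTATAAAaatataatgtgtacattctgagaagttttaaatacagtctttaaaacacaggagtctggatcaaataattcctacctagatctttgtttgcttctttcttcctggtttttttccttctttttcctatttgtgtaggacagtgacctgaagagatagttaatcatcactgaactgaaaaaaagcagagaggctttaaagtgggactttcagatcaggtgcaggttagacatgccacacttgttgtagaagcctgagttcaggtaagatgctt

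Slco1a1, chr6:141946913-141947212, minus strand: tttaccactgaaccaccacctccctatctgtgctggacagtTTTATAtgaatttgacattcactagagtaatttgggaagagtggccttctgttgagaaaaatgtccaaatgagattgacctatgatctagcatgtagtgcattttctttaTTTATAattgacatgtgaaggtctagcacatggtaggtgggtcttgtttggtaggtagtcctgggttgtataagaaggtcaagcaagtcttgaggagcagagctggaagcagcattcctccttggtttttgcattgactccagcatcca

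The marked letters match the GC box in Slc22a12, the NF-Y box in Slc22a6, and the TATA box in Slco1b2 and Slco1a1. These TATA box matches do not lie just before the transcription start. Over the 40 member windows, the NF-Y box was in 32.5%, against 37.4% of 32851 promoter windows of all genes. The GC box was in 22.5% of member windows and 35.7% of all windows, and the TATA box in 20.0% and 13.6%. The core of the HNF4 motif, CAAAGTCCA, was in 0 of the 40 windows, against 0.475% of all windows. None of these motifs contains another, and a match is a string of letters and not a measured binding site.

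Kidney and liver divided the members in both directions. With both preservations as replicates of the organ, 6 of the 40 members were higher and 8 were lower in kidney than in liver (limma, Benjamini-Hochberg adjusted p under 0.05 over 26944 genes), while 26 did not pass. Among all genes tested 4.71% were higher and 7.05% were lower. The members' median difference was 0.15, against 0.04 for all genes, and their differences ran between -2.07 for Slco1b2 and 2.52 for Slc22a12. As a description of these calls, the kidney and liver libraries did not overlap for any of the 14 members, nor for 99.4% of all genes called higher and 99.1% of those called lower.

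**Figure D1:**
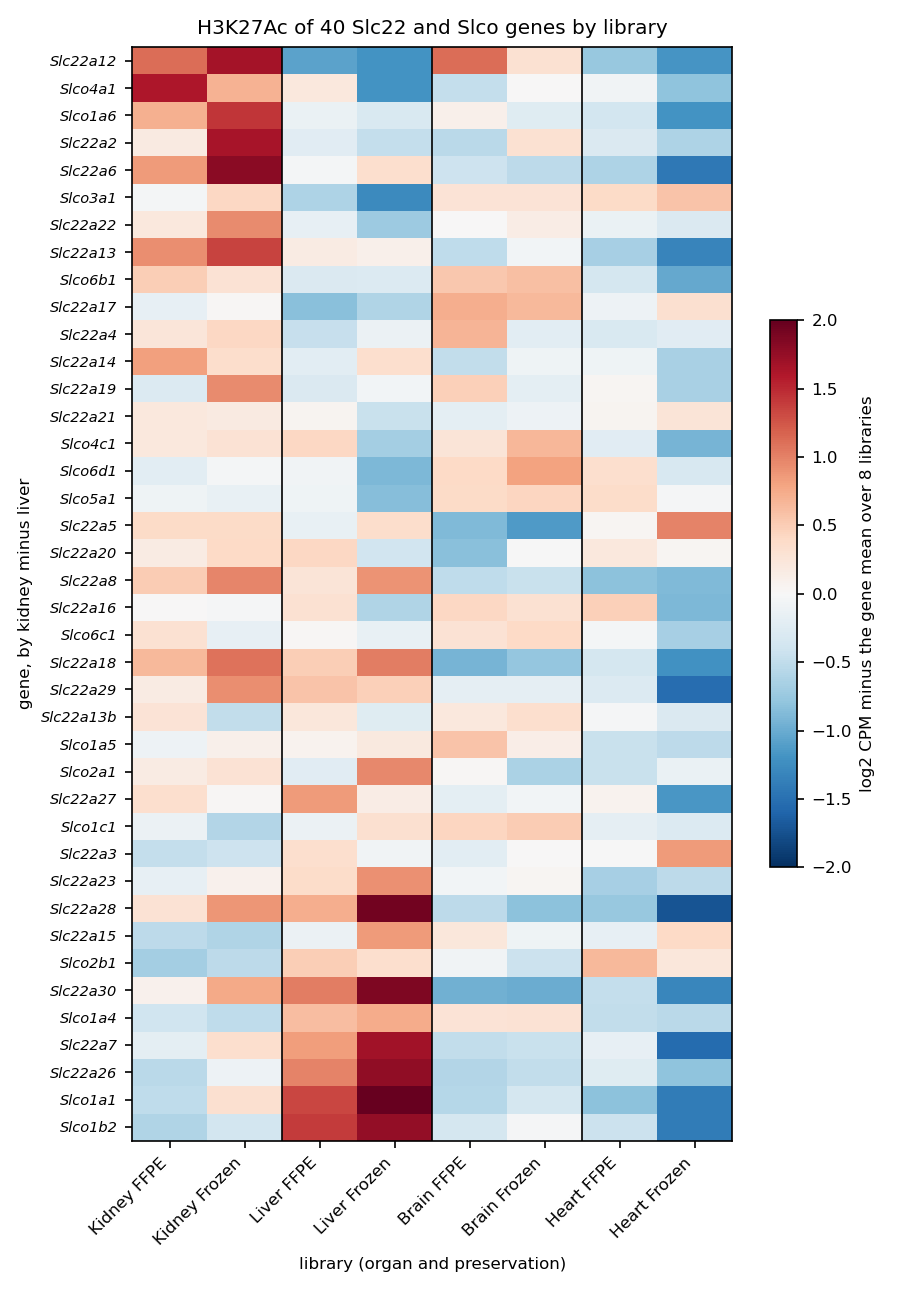
H3K27Ac log2 CPM of the 40 members (one below another) in the 8 libraries, as the difference of each library from the gene's mean over all 8 (red above, blue below). Slc22a26, Slc22a30, Slco1a1 and Slco1b2 were highest in the 2 liver libraries, and Slc22a6, Slco4a1 and Slco1a6 in the 2 kidney libraries.

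Of the anion and urate transporter genes of the proximal tubule, Slc22a12 and Slc22a6 were higher in kidney than in liver, while Slc22a8 and Slc22a13 did not pass. Slc22a12 (chromosome 19, 6535854 to 6543070) encodes URAT1, which takes urate back at the urine side of the proximal tubule. It measured 6.28 log2 CPM in the kidney FFPE and 6.83 in the kidney Frozen library, against 4.10 and 3.97 in liver. The difference of 2.52 ± 0.29 (log2, SE) was the largest of any member, a 5.75-fold excess (limma, adjusted p = 9.9e-08). By counts alone, kidney exceeded liver 4.55-fold in FFPE (exact 95% counting interval 3.56 to 5.88) and 7.34-fold in Frozen (5.86 to 9.27). Brain was also high, at 6.29 in FFPE and 5.48 in Frozen, and heart measured 4.41 and 3.99, so brain and kidney were level in the FFPE libraries. The next gene, Nrxn2, a neuronal adhesion gene 2637 bases away, measured 7.70 and 7.05 in brain and was higher there than in the other 3 organs by 1.22 (limma, adjusted p = 5.8e-05). The part of Nrxn2 in the brain value of Slc22a12 was not tested.

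Slc22a6 encodes OAT1, the transporter that takes p-aminohippurate and many drugs out of the blood into the proximal tubule cell. It measured 5.98 in the kidney FFPE and 6.94 in the kidney Frozen library, against 5.10 and 5.47 in liver, 4.72 and 4.61 in brain, and 4.52 and 3.71 in heart. Kidney exceeded liver by 1.18 ± 0.31 (limma, adjusted p = 0.0083) and the mean of the other 3 organs by 1.78 ± 0.25 (limma, adjusted p = 1.1e-05). Its neighbour Slc22a8, 6161 bases away, encodes OAT3, which works beside OAT1 on the same membrane. It measured 5.76 and 6.23 in kidney and 5.50 and 6.15 in liver, a difference of 0.17 ± 0.27 that did not pass (limma, adjusted p = 0.79). Slc22a8 was higher than in the mean of the other 3 organs both for kidney, by 1.00 ± 0.22, and for liver, by 0.77 ± 0.22 (limma, adjusted p = 0.0037 and 0.011). Slc22a6 thus passed in kidney minus liver and Slc22a8 did not, and the difference between the neighbours was not tested.

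Slc22a13, whose human counterpart OAT10 carries nicotinate and urate, measured 4.67 and 5.10 in kidney and 3.91 and 3.85 in liver. Its kidney excess over liver of 1.01 ± 0.38 missed the threshold (limma, adjusted p = 0.079), while its excess over the mean of the other 3 organs was 1.52 ± 0.31 (limma, adjusted p = 0.0012). Slc22a22, which carries prostaglandins in the mouse, was just outside the threshold as well, at 1.02 ± 0.38 (limma, adjusted p = 0.077).

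Anion transporters of the Slc22 family also stood on the liver side. Slc22a7 (OAT2), an anion and nucleotide transporter of hepatocytes, measured 4.63 and 5.17 in the kidney FFPE and Frozen libraries, against 5.67 and 6.51 in liver, 4.34 and 4.38 in brain, and 4.67 and 3.29 in heart. Kidney minus liver was -1.19 ± 0.35 (limma, adjusted p = 0.020). Slc22a26 and Slc22a30 belong to a rodent group of closely related anion transporter genes on chromosome 19. Slc22a26 measured 3.34 and 3.78 in kidney, against 4.88 and 5.66 in liver, 3.30 and 3.39 in brain, and 3.64 and 3.08 in heart. Both liver libraries were above the other 6, and kidney minus liver was -1.71 ± 0.37 (limma, adjusted p = 0.0011). Slc22a30 measured 4.59 and 5.25 in kidney, against 5.53 and 6.36 in liver, 3.53 and 3.50 in brain, and 4.01 and 3.19 in heart. Kidney minus liver was -1.02 ± 0.34 (limma, adjusted p = 0.045), the call nearest to the threshold, and kidney stood between liver and the remaining organs. Slc22a28 of the same group had a like order of organs, with 4.71 and 5.29 in kidney, 5.13 and 6.34 in liver and 2.69 to 3.89 elsewhere, but its kidney minus liver difference of -0.74 ± 0.37 did not pass (limma, adjusted p = 0.23). Slc22a27, Slc22a29 and Slc22a19 of that chromosome 19 group had differences of -0.31, 0.02 and 0.51 that did not pass either. These genes are similar in sequence, and no source used here says how reads that match several places were counted, so their values are uncertain.

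Of the organic cation transporters, Slc22a2 (OCT2) and Slc22a3 (OCT3) lie together on chromosome 17. OCT2 carries metformin and other cations on the blood side of the proximal tubule. Slc22a2 measured 4.35 in the kidney FFPE and 5.82 in the kidney Frozen library, against 3.95 and 3.70 in liver, 3.63 and 4.48 in brain, and 3.88 and 3.55 in heart. Kidney exceeded liver by 1.26 ± 0.37 (limma, adjusted p = 0.020). The size rested on the Frozen pair: by counts the excess was 4.38-fold in Frozen (exact 95% counting interval 3.39 to 5.73) and 1.33-fold in FFPE (0.97 to 1.82), where the interval includes no difference. Slc22a3, the extraneuronal monoamine transporter, measured 4.38 and 4.44 in kidney, 5.19 and 4.78 in liver, 4.65 and 4.87 in brain, and 4.84 and 5.71 in heart, and none of its comparisons passed. It overlaps the transcript C030013G03Rik, and ChIP reads of the overlap cannot be divided between the 2 genes.

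**Figure D2:**
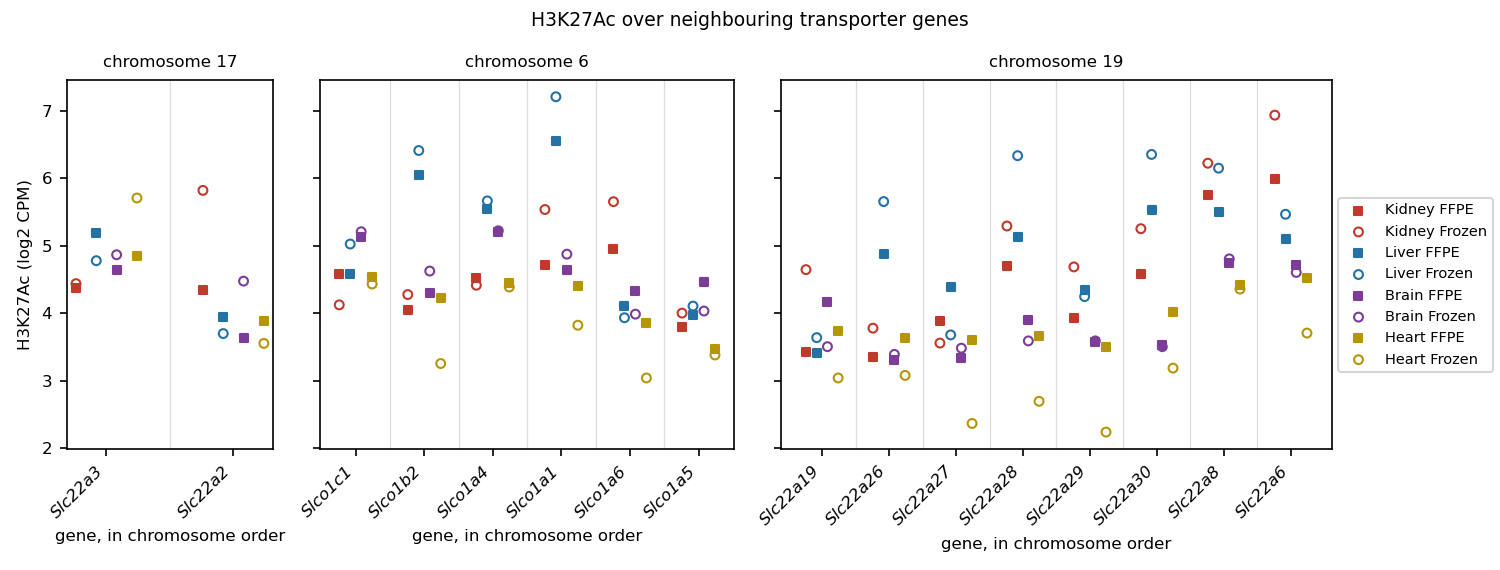
H3K27Ac signal (log2 CPM, y axis) of the members in the chromosome 17, chromosome 6 and chromosome 19 groups, in order along the chromosome; each point is 1 library, coloured by organ, with squares for FFPE and open circles for Frozen. Kidney points lie above liver points for Slco1a6 and below them for Slco1a1 of the same group, and above them for Slc22a2 and Slc22a6.

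No carnitine transporter gene passed the test between kidney and liver. Slc22a5 encodes OCTN2, which brings carnitine into heart, muscle and kidney for fatty acid oxidation, and Slc22a4 (OCTN1) carries ergothioneine. Slc22a5 measured 6.58 and 6.58 in kidney, against 6.04 and 6.55 in liver, 5.32 and 5.05 in brain, and 6.24 and 7.18 in heart. Its kidney minus liver difference was 0.29 ± 0.27 (limma, adjusted p = 0.60). The 2 brain libraries were below the other 6, and brain was lower than the mean of the other 3 organs, at -1.34 ± 0.22 (limma, adjusted p = 2.4e-05). Its neighbour Gm12216, 5286 bases away and named after its value was seen, was lower in brain by more, at -1.98 (limma, adjusted p = 9.2e-08). The neighbour on the other side, Slc22a21, did not pass there (-0.21). The part of Gm12216 in the brain value of Slc22a5 was not tested. Slc22a4, Slc22a21 (Octn3) and Slc22a16, a carnitine transporter of testis, differed between kidney and liver by 0.61 ± 0.29, 0.40 ± 0.30 and 0.14 ± 0.40, none of which passed (limma, adjusted p = 0.20, 0.48 and 0.90).

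The remaining Slc22 members had roles outside this division or unknown ones, and Slc22a13b is listed as a pseudogene. Slc22a15 was lower in kidney, with 5.70 and 5.62 against 6.11 and 7.08 in liver, 6.46 and 6.15 in brain and 6.07 and 6.63 in heart (-0.94 ± 0.27, limma, adjusted p = 0.019). Its size rested on the Liver Frozen library: the difference was -0.42 in FFPE and -1.46 in Frozen, and -0.48 without that library. Slc22a23, an orphan, was just outside the threshold at -0.68 ± 0.25 (limma, adjusted p = 0.075). Slc22a17, the receptor for the iron-binding protein lipocalin-2, and Slc22a18, an imprinted gene, did not pass in kidney minus liver (0.65 ± 0.27 and 0.12 ± 0.34). Slc22a13b, Slc22a14 and Slc22a20 differed by -0.10, 0.52 and 0.26, and none passed.

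Slco1b2 and Slco1a1, OATP genes of the Slco1 group on chromosome 6, were the members with the lowest kidney values relative to liver. Slco1b2 (chromosome 6, 141629452 to 141686646) is the bile acid and bilirubin uptake transporter of the mouse hepatocyte. It measured 4.05 in the kidney FFPE and 4.28 in the kidney Frozen library, against 6.05 and 6.41 in liver, 4.30 and 4.63 in brain, and 4.23 and 3.25 in heart. Both liver libraries stood apart from the other 6. Kidney minus liver was -2.07 ± 0.32, a 4.19-fold lower level in kidney (limma, adjusted p = 1.4e-05). By counts kidney held 0.249 of the liver level in FFPE (exact 95% counting interval 0.194 to 0.317) and 0.227 in Frozen (0.182 to 0.280).

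Slco1a1, which carries steroid conjugates in hepatocytes and proximal tubule, measured 4.72 and 5.54 in kidney, against 6.56 and 7.21 in liver, 4.65 and 4.88 in brain, and 4.41 and 3.82 in heart. Kidney minus liver was -1.76 ± 0.30 (limma, adjusted p = 4.55e-05). Slco1a4, an OATP of hepatocytes and of brain capillaries, measured 4.53 and 4.42 in kidney, against 5.55 and 5.67 in liver, 5.21 and 5.22 in brain, and 4.44 and 4.39 in heart. It was lower in kidney than in liver, at -1.14 ± 0.28 (limma, adjusted p = 0.0041), and both brain libraries lay between the liver and the kidney libraries. Slco1a6 lay in the same row of genes and went the other way. It measured 4.95 and 5.65 in kidney, against 4.10 and 3.93 in liver, 4.33 and 3.99 in brain, and 3.86 and 3.04 in heart, a kidney excess over liver of 1.28 ± 0.35 (limma, adjusted p = 0.010). Gm6614, a gene between Slco1a1 and Slco1a6 that is not a member and was named after its value was seen, was lower in kidney, at -1.68 (limma, adjusted p = 7.2e-05). The other 2 genes of the group, Slco1c1, a thyroxine transporter of brain capillaries, and Slco1a5, had differences of -0.45 ± 0.30 and -0.13 ± 0.35 that did not pass. The Slco1a genes are close copies of each other, and Slco1a5 overlaps Iapp, with the same limit on reads that match more than 1 gene.

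Of the Slco genes elsewhere, 2 were higher and 1 was lower in kidney. Slco4a1, which carries thyroid hormone and prostaglandins, measured 6.03 in the kidney FFPE and 5.09 in the kidney Frozen library, against 4.61 and 3.21 in liver, 3.93 and 4.42 in brain, and 4.33 and 3.61 in heart. Kidney exceeded liver by 1.65 ± 0.35 (limma, adjusted p = 0.0010), with a count ratio of 2.68 in FFPE (exact 95% counting interval 2.16 to 3.35) and 3.70 in Frozen (2.71 to 5.13). Slco3a1, a widely expressed OATP, measured 5.73 and 6.18 in kidney, against 5.14 and 4.49 in liver, 6.05 and 6.03 in brain, and 6.15 and 6.34 in heart. Its kidney excess over liver of 1.14 ± 0.27 (limma, adjusted p = 0.0031) went with a low value in liver, which was below all 6 other libraries. Slco2b1, an OATP of many organs, measured 5.50 and 5.65 in kidney, against 6.66 and 6.50 in liver, 6.10 and 5.74 in brain, and 6.82 and 6.40 in heart, and was lower in kidney than in liver, at -1.01 ± 0.25 (limma, adjusted p = 0.0050). Slco4c1, whose product carries digoxin in the rat and human kidney, did not pass (0.38 ± 0.38, limma, adjusted p = 0.62). The prostaglandin transporter gene Slco2a1, Slco5a1 and the Slco6 genes known from testis had differences between -0.15 and 0.67 that did not pass.

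**Figure D3:**
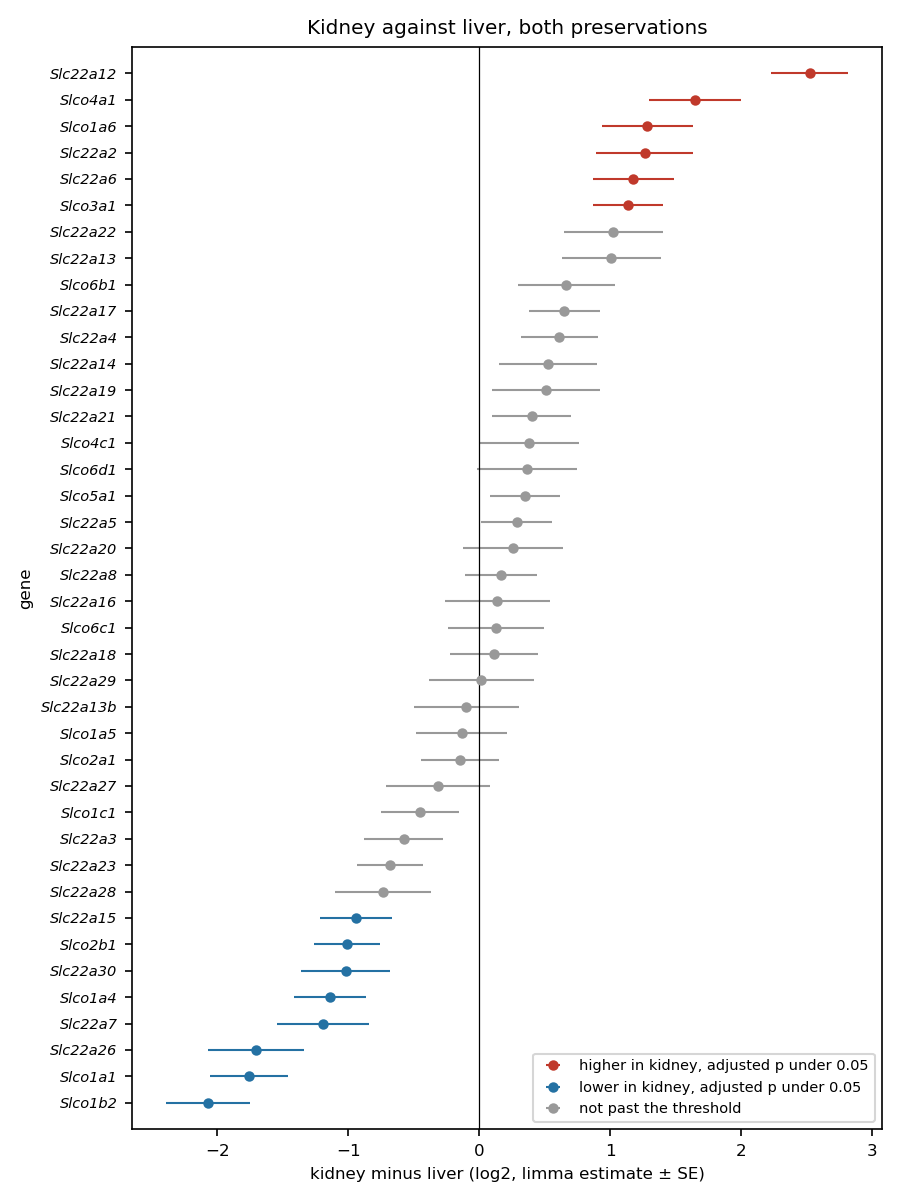
Kidney minus liver difference of H3K27Ac (log2, with SE) for all 40 members, ordered by size, in red (higher) or blue (lower) for an adjusted p under 0.05 and otherwise in grey. The 6 members that were higher run up to 2.52, the 8 that were lower run down to -2.07, and the 26 grey members lie between them.

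The preservations gave separate looks at the same pair of organs. The kidney minus liver difference had the same sign in FFPE and in Frozen for 30 of the 40 members (75%), against 61.8% of all genes. Over all members, both kidney libraries were above both liver libraries for 14 members (35%), against 24.6% of all genes, and below them for 10 (25%), against 21% of all genes. The libraries overlapped for the other 16. The number of calls depended on single libraries. It was 4 of 40 without the Liver Frozen library, 6 without Kidney Frozen and 8 without Kidney FFPE, while the share of all genes called was 4.93%, 4.54% and 6.56% in these fits, against 11.8% with all libraries. Slc22a12, Slco1a1 and Slco1b2 passed whichever of the 8 libraries was left out. Without Kidney Frozen the difference was 0.61 for Slc22a6, 0.57 for Slc22a2 and 0.71 for Slco1a6, and none of these passed. Without Liver Frozen it was -0.63 for Slc22a7, -0.57 for Slc22a30, 0.71 for Slco3a1 and 0.81 for Slc22a2, and none of these passed. The count of calls was also 9 without the filter on genes at 0, 7 without a preservation term and 2 without the variance trend, where Slc22a12 and Slco1b2 remained. The share of all genes called was 9.37%, 7.08% and 3.51% in these fits. Without the variance trend the share of members called was 5%. Over the 16 alternatives, Slc22a12 and Slco1b2 passed in all 16 and Slco1a1 in 15. Slco2b1, Slco3a1, Slco1a4 and Slc22a26 passed in 13, Slco4a1 and Slco1a6 in 12, Slc22a6 and Slc22a2 in 11, Slc22a7 and Slc22a15 in 10, and Slc22a30 in 8.

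**Figure D4:**
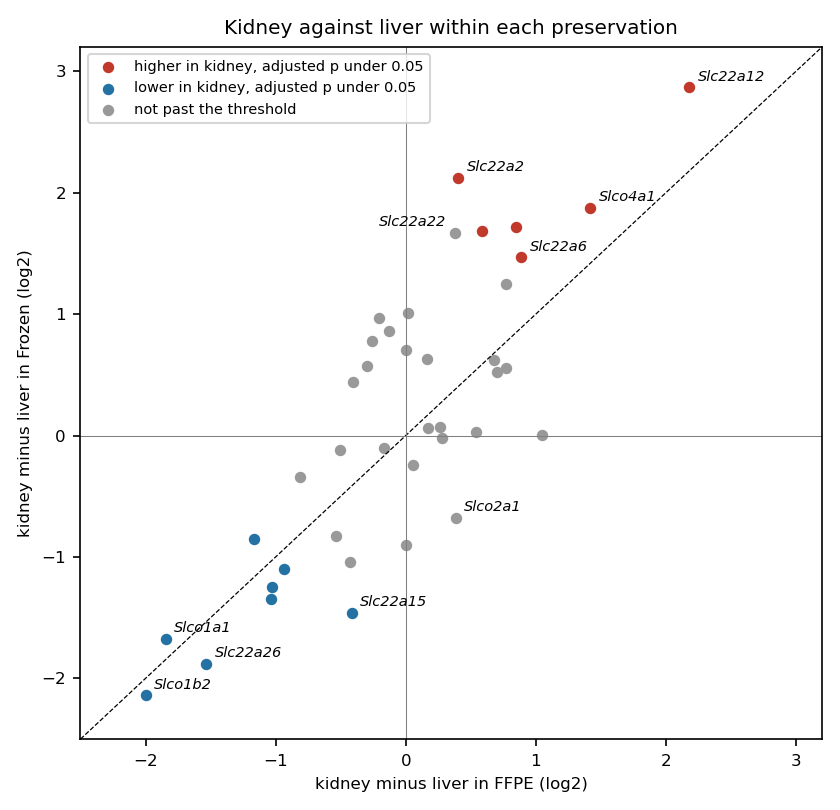
Kidney minus liver difference (log2) of each member in the FFPE pair (x axis) and the Frozen pair (y axis), with members that were higher (red) or lower (blue) past the threshold in colour and a dashed line of equal differences. Slc22a12 lies at 2.18 and 2.87, Slco1a1 at -1.84 and -1.67, and Slco2a1 at 0.38 and -0.68.

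Each organ was also set against the mean of the other 3, in the same fit, so these comparisons share libraries with each other and with kidney minus liver. Kidney was higher for 8 members and lower for 2, where 3.19% and 2.03% of all genes were. Beside Slc22a12 (1.85 ± 0.24), Slc22a6, Slc22a8 and Slc22a13, the higher members were Slco4a1 (1.54 ± 0.29), Slco1a6 (1.43 ± 0.28), Slc22a2 (1.22 ± 0.30) and Slc22a18 (1.16 ± 0.27), and the lower ones were Slco2b1 (-0.80 ± 0.21) and Slc22a15 (-0.76 ± 0.22). Without the Kidney Frozen library 1 member, Slco4a1, and 0.984% of all genes passed, and without Kidney FFPE 5 members and 1.5% of all genes did, against 5.22% of all genes with all libraries. Kidney was the highest organ in both preservations for 9 members, against 7.21% of all genes.

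Liver was higher than the mean of the other 3 organs for 10 members and lower for 4, where 11.2% and 9.73% of all genes were. Slco1a1 (2.22 ± 0.24), Slco1b2 (2.11 ± 0.26), Slc22a30 (1.93 ± 0.28), Slc22a26 (1.85 ± 0.30), Slc22a28 (1.76 ± 0.30) and Slc22a7 (1.68 ± 0.29) led, followed by Slc22a18, Slco1a4, Slc22a23 and Slc22a8 at 0.77 to 1.01. The lower members were Slc22a12 (-1.51 ± 0.24), Slco3a1 (-1.26 ± 0.22), Slc22a17 (-0.96 ± 0.22) and Slco5a1 (-0.62 ± 0.22). The Slco5a1 call was the least stable of these 14: it passed in 6 of 15 alternatives, with differences between -0.93 and -0.30, and was lost without any one of the Brain Frozen, Heart FFPE, Heart Frozen, Kidney FFPE, Kidney Frozen and Liver Frozen libraries. Without the Liver Frozen library 6 members and 8.17% of all genes passed, against 20.9% of all genes with all libraries. Of the housekeeping genes 3 were higher and 0 lower in liver. Liver was the highest organ in both preservations for 9 members, against 14.3% of all genes.

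Brain showed 2 higher and 5 lower members against the mean of the other 3 organs, with 8.73% and 13.6% of all genes. Slc22a17 measured 5.90 and 5.83 in brain, against 5.02 and 5.19 in kidney, 4.34 and 4.57 in liver, and 5.07 and 5.49 in heart, and its 2 brain libraries were the highest of the 8 (0.91 ± 0.22, limma, adjusted p = 0.0023). Slc22a12 was the other, at 0.95 ± 0.24 (limma, adjusted p = 0.0034), beside the high signal of Nrxn2 given above. Both calls were lost without the Brain FFPE library. The lower members were Slc22a5, Slc22a30 (-1.30 ± 0.28), Slc22a18 (-1.13 ± 0.27), Slc22a28 (-0.90 ± 0.30) and Slc22a8 (-0.63 ± 0.22). Of 15 alternatives, Slc22a5 passed in 15, Slc22a30 and Slc22a18 in 14, Slc22a28 in 8 and Slc22a8 in 6. Both neighbours of Slc22a18, Cdkn1c and Phlda2, were lower in brain as well, at -1.05 and -1.47 (limma, adjusted p = 0.0016 and 0.00034). Their part in the Slc22a18 value was not tested. Slco1c1, known from brain capillaries, measured 5.13 and 5.21 in brain, the highest of the 4 organs in both preservations, but its excess of 0.62 ± 0.24 missed the threshold (limma, adjusted p = 0.064). Of 9 markers of brain endothelium 3 were higher and 2 lower in brain, and of 8 choroid plexus markers 0 were higher and 1 lower. With the libraries set to one distribution (quantile normalization) 6 members were higher and 6 lower, and with the same median and spread 7 were higher and 7 lower. The share of all genes past the threshold was 25.9% and 27% under these rescalings, so it rose as well. The count of members past the threshold was 11 without the Heart Frozen library, with 19.2% of all genes, and 14 without Liver FFPE, with 26.9% of all genes, against 7 members and 22.4% of all genes with all libraries. Of the housekeeping genes 0 were higher and 5 lower in brain. Brain was the highest organ in both preservations for 5 members, against 17.3% of all genes.

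Heart had 3 higher and 15 lower members, with 9.42% and 7.31% of all genes, and the members' median difference was -0.59, against -0.04 for all genes. The higher ones were Slc22a5 (0.69 ± 0.22), Slco3a1 (0.64 ± 0.22) and Slco2b1 (0.59 ± 0.21), with adjusted p = 0.027, 0.040 and 0.046 (limma). Under either of the 2 rescalings none of them passed and 14 members were lower. Over all 26944 genes, 2068 were lower with quantile normalization and 2281 with the same median and spread. The lower members included Slc22a28 (-1.65 ± 0.30), Slco1a1 (-1.48 ± 0.24), Slc22a6 (-1.36 ± 0.25) and Slc22a12 (-1.29 ± 0.24). The Heart Frozen library was the lowest of the 8 for many of them, for example Slc22a28 at 2.69, Slc22a13 at 2.43 and Slc22a29 at 2.24, and it is also a library with a wide spread over all genes. Without it 1 member, Slc22a12, passed, and 3.24% of all genes, against 16.7% of all genes with all libraries. In heart 9 of 10 endothelial markers were higher and 0 lower, and 4 of 16 housekeeping genes were higher and 0 lower, and the part of these differences in the members' values was not tested. Heart was the highest organ in both preservations for 1 member, Slco3a1, against 14.4% of all genes.

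The preservation term, 1 average over the 4 organs, passed for no member. FFPE minus Frozen gave 0 of 40 members (limma, adjusted p under 0.05), where 2% of all genes were higher and 1.91% lower, a share near to that. Differences that vary by organ do not enter this term and were not tested. FFPE minus Frozen was 1.38 in heart and -0.85 in liver for Slc22a7, and 0.97 and -1.20 for Slc22a28. At an unadjusted p under 0.05 there were 2, Slco4a1 (0.64 ± 0.25) and Slc22a16 (0.60 ± 0.28), and the smallest adjusted p was 0.16 for Slco4a1. Slco4a1 passed when either brain library was left out, and 0 members passed in every other alternative computed. Slc22a16 was higher in the FFPE than in the Frozen library in all 4 organs, and Slc22a23 lower in all 4.

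A separate list of efflux and partner transporters held 31 genes, among them Pdzk1, Slc9a3r1 and Slc9a3r2, which are not transporters. Of these 31, 3 were higher and 8 lower in kidney than in liver, where 4.71% and 7.05% of all genes were. The median difference was -0.04, and 0.03 or 0.01 under the rescalings, so its sign depended on the scaling. The lower ones were led by Slc17a2 of the phosphate and urate transporter family (-2.98 ± 0.29), the bile acid importer Slc10a1 (-2.74 ± 0.31), the canalicular phospholipid exporter Abcb4 (-2.26 ± 0.26), the nucleoside transporter Slc29a1 (-1.75 ± 0.29) and the conjugate exporters Abcc3 and Abcc2 (-1.55 ± 0.27 each). The higher ones, named after their values were seen, were Slc51a (1.42 ± 0.36), Slc5a8 (1.14 ± 0.28) and Abcc1 (0.81). Of 19 transcription factors known to regulate such transporters 0 were higher and 14 were lower in kidney than in liver, with a median of -1.31 (-0.98 and -0.96 under the rescalings). The list leaned to liver: against the mean of the other 3 organs, 16 were higher and 0 lower in liver, where 11.2% and 9.73% of all genes were. In kidney 2 were higher and 3 lower, where 3.19% and 2.03% of all genes were. Nr1i3 (-3.66 ± 0.36), Foxa1 (-3.24 ± 0.34), Foxa2 (-3.12 ± 0.33), Nr5a2 (-2.53 ± 0.28), Foxa3 (-2.48 ± 0.30) and Nr1i2 (-1.72 ± 0.28) were the lowest.

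Most members sat in groups of neighbours. Within 500 kb of each other, 25 of the 40 formed 6 groups, on chromosomes 1, 6, 9, 11, 17 and 19. The chromosome 6 group had 1 higher and 3 lower of 6 genes in kidney minus liver, the chromosome 19 group 1 higher and 2 lower of 8, and the chromosome 17 group 1 higher and 0 lower of 2. The groups on chromosomes 1 (Slco4c1, Slco6b1 and Slco6c1), 9 (Slc22a14, Slc22a13 and Slc22a13b) and 11 (Slc22a5, Slc22a21 and Slc22a4) had no gene past the threshold. On chromosomes 6 and 19, members past the threshold in opposite directions lay in the same stretch of chromosome.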

How the data were processed

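H3K27Ac ChIP-seq was measured in brain, heart, kidney and liver of mice, as FFPE or Frozen tissue. The authors deposited log2 values per gene; the submitters' processing notes name limma, featureCounts, Bowtie2 and build mm10. Not given in the sources used here are versions, the counted part of a gene, strand and how multiply matching reads were treated. Each deposited log2 value is log2 CPM, with 0.5 added to the count and a scaled library size, since 100% returned a whole count within 0.001. Columns carry no replicate number; whether each is 1 replicate or merged is not given, and neither the 2 library kits nor the ChIP runs in the labels could be matched to columns. Inputs were not used here.

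Genes at 0 in all 8 columns (235) were removed, and 26944 were fitted with limma 3.58.1 in R 4.3.3 (lmFit, eBayes with a variance trend) by organ and preservation, with 3 residual degrees of freedom. Organs of both preservations served as replicates, so the residual spread is a departure from additive organ and preservation terms. It is not a spread between replicates of a group. The variance trend drew each gene's variance toward that of genes with a like mean value. This prior carried 30.6 degrees of freedom (median), against the 3 residual ones, so p-values rest largely on the spread of other genes. Two-sided p-values were Benjamini-Hochberg adjusted over all genes, with a threshold of 0.05. The fit was tested on simulated counts with the same dispersion for all genes. They held no preservation effect and no library of wider spread, so the error rate on the real libraries was not tested. Counting intervals are exact, at 95%, and cover counting error only. The design assumed that replicate columns might exist, and the same model was used with 1 column per group. Positions and promoters come from RefSeq on GRCm38, the assembly of mm10. The symbol rule matched 41 genes, of which 1 is not reported here, likewise 1 gene of the transcription factor list and 1 motif. The members, lists and motifs were chosen with earlier results of these data known. All members past the threshold in kidney minus liver were named, with all 8 values for those with the largest differences there and the largest rises in brain and heart. Of other lists, at most 6 genes were named by size of difference. In the efflux and partner list the 3 higher genes were named in addition, after their values were seen.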

Additional observations from a re-analysis of the deposited data

Results flagged for a closer look

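Slco2a1, which encodes the prostaglandin transporter, was the 1 member whose kidney minus liver difference had opposite signs in the preservations with both exact 95% counting intervals excluding equality. The difference was 0.38 on the log2 scale in FFPE, with 5.85 log2 CPM in kidney and 5.47 in liver, and -0.68 in Frozen, with 5.98 in kidney and 6.65 in liver. The count ratio of kidney over liver was 1.31 in FFPE (1.09 to 1.57) and 0.625 in Frozen (0.546 to 0.715). The kidney libraries were close to each other, and the liver libraries were not. With 1 column per organ and preservation the difference between preservations was not tested, and the intervals cover counting error only.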

How the results depend on the processing

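No paired analysis was possible because the 8 columns carry no replicate number by which to pair them; preservation was a term of the model. The limits are the 1 column per organ and preservation, the 3 residual degrees of freedom, and the Liver Frozen and Heart Frozen libraries with their wide spread. Of the 63 calls of single members over all organ comparisons, 762 of 959 values under alternatives stayed past the threshold in the same direction, 197 no longer passed, and 0 reversed; causes were not tested. Leaving out 1 library at a time, with the organ's lone library assumed to vary like the others, member counts ran over 4 to 15 in kidney minus liver, 5 to 14 for brain, 1 to 20 for heart, 1 to 11 for kidney against the other organs, 6 to 18 for liver, and 0 to 1 for FFPE minus Frozen. Over all genes they ran over 1223 to 3624, 2505 to 7242, 872 to 5251, 265 to 1843, 2200 to 6005 and 501 to 1969 in the same order. Without the filter on genes at 0, kidney minus liver gave 9 members and 2548 of all genes. Over all genes, kidney against the others gave 919 and FFPE minus Frozen 608. Without a variance trend, members fell to 2 (kidney minus liver), 2 (brain), 3 (heart), 0 (kidney against the others) and 9 (liver), and all genes to 947, 2421, 1373 and 130, with 2677 for liver and 369 for FFPE minus Frozen. Without a preservation term, members were 7 for kidney minus liver, 11 for heart and 5 for kidney against the others, and all genes 1907, 2544 and 625, with 3779 for brain. Quantile normalization gave 12 members for brain and 2264 genes for kidney against the others, and the same median and spread gave 14 and 2375. Over all genes brain gave 6986 and 7280 under these rescalings. Under quantile normalization kidney minus liver gave 1776 genes higher and 1737 lower, against 1268 and 1900 as deposited.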
